A study of Mus musculus with 2 samples.

Results

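The growth hormone and IGF1 axis was examined as 10 genes named by symbol (Ghr, Prlr, Igf1, Igfals, Socs2, Socs3, Cish, Stat5a, Stat5b and Bcl6), and every probe set annotated to exactly 1 of them was included. This gave 24 probe sets for 9 genes, out of 34945 probe sets for 18193 genes on the array. No probe set carried the symbol Prlr in the annotation used, so the prolactin receptor gene was not analysed here. The samples were hepatocytes of male FVB mice, 6 to 8 weeks old, and each of the groups held 1 Affymetrix Mouse Genome 430 2.0 array. All mice had received 10 µg of a plasmid for EzrinT567D, an ezrin with an acidic residue in place of the phosphorylated threonine, and 0.8 µg of the transposase plasmid pCMV/SB by hydrodynamic tail vein injection, which forces DNA in 2 ml of saline into hepatocytes. At 1 week after injection the liver was digested with collagenase, and GFP-negative hepatocytes (EzrinT567D negative) were sorted from GFP-positive hepatocytes (EzrinT567D positive). The negative cells are thus sorted cells of injected animals, not cells of untreated mice. How many mice were used, and whether the fractions came from the same livers, is not given in the sources used here. The growth protocol gives chow for both samples, whereas a free-text description places both samples at 2 months and puts the positive cells on fast food, so diet and ezrin status cannot be told apart if that field is right.

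Growth hormone from the pituitary binds its receptor, Ghr, on hepatocytes and activates the transcription factors Stat5a and Stat5b. These induce Igf1, the circulating growth factor, and Igfals, which holds it in a stable complex in blood. They also induce Socs2 and Cish, feedback inhibitors that damp the receptor's own signal. Bcl6 is a repressor that opposes Stat5 at many of its target genes in mouse liver, and Socs3 is an inhibitor mainly induced through Stat3 by cytokines such as interleukin 6.

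The signals are MAS5 intensities in arbitrary units, and each log2 ratio is log2 of the positive array's signal divided by that of the negative array. With 1 array per group there is no replicate error and no test. As a technical yardstick, the log2 ratios of the 2 highest-signal probe sets of a gene differed with an SD of 0.41 over 3141 genes. It describes a difference between 2 ratios from the same arrays, so it is not the error of a single ratio. Variation between arrays, RNA samples or animals is not part of it, and single ratios are set beside it only as a scale. A background floor, taken from receptor genes of smell and taste, lay at 272.4 in the negative array and 334.0 in the positive one. Of the 24 probe sets, 18 exceeded the floor in both arrays, 2 in 1 array and 4 in neither. Hepatocyte markers read well above the floor in both arrays for 8 of 8 genes with a probe set of their own, with Alb at 46434.5 and 38679.3 (negative, then positive). Their summed signals were 272289.3 and 242557.5, and 7 of 8 were lower in their highest-signal probe sets, with a median log2 ratio of -0.25. Of all genes above the floor, 47.8% were lower, and the median over the 805 genes with a mean signal over 5000 was -0.12. Probe sets of a marker could disagree: Hnf4a was at -0.32 in its highest-signal probe set and at -0.09, 0.12 and 0.62 in the others. The other markers with several probe sets spread less, over -0.03 to 0.01 for Apoa1 and -0.12 to -0.01 for Ttr. Apob was at 0.03 in each of its probe sets. Whether hepatocyte content differed was not tested. Of the other cell types, 3 of 8 Kupffer cell, 4 of 6 sinusoidal endothelial, 5 of 6 stellate and 2 of 4 lymphocyte markers exceeded the floor in at least 1 array. None of the 4 cholangiocyte markers and neither of the 2 neutrophil markers with a probe set did. The summed marker signals were 2084.2 and 1591.2 for Kupffer cells, 2923.0 and 3197.9 for endothelium, 2568.5 and 2438.9 for stellate cells, and 697.8 and 685.8 for lymphocytes (negative, then positive), and their part in the ratios below was not tested. Markers below the floor are included in these sums, and 0 of the 4 lymphocyte markers exceeded it in both arrays. Of 2 zonal genes picked with their values known, the pericentral Glul read 8783.1 and 19020.7, and the periportal Cyp2f2 read 22864.6 and 12535.1. The part of zonation in the ratios below was not tested either.

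No member reached 2-fold in either direction (0 of 9 genes). Of the 9904 genes above the floor, 1.14% were at least 2-fold higher and 0.596% at least 2-fold lower. At 1.5-fold, Socs2 and Cish were higher and Igfals was lower in EzrinT567D-positive hepatocytes. These are 2 of 9 genes higher, against a background of 6.29%, and 1 of 9 lower, against 4.09%. After quantile normalization those all-gene counts, 623 higher and 405 lower, became 473 and 507, and the members' count became 1 higher, Socs2, and 1 lower. Per probe set, 3 of 20 were at least 1.5-fold higher, against 7.05% of all probe sets above the floor, and 2 of 20 at least 1.5-fold lower, against 3.75%. Counting any size, 4 members were higher and 5 lower, against 46.1% and 47.8% of all genes. The median log2 ratio of the 9 genes was -0.10, and that of all genes was 0.00. The feedback inhibitors Socs2 and Cish thus read in the opposite direction from Igfals, while the receptor, both Stat5 genes, Igf1 and Bcl6 stayed within the technical yardstick in their highest-signal probe sets.

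**Figure D1:**
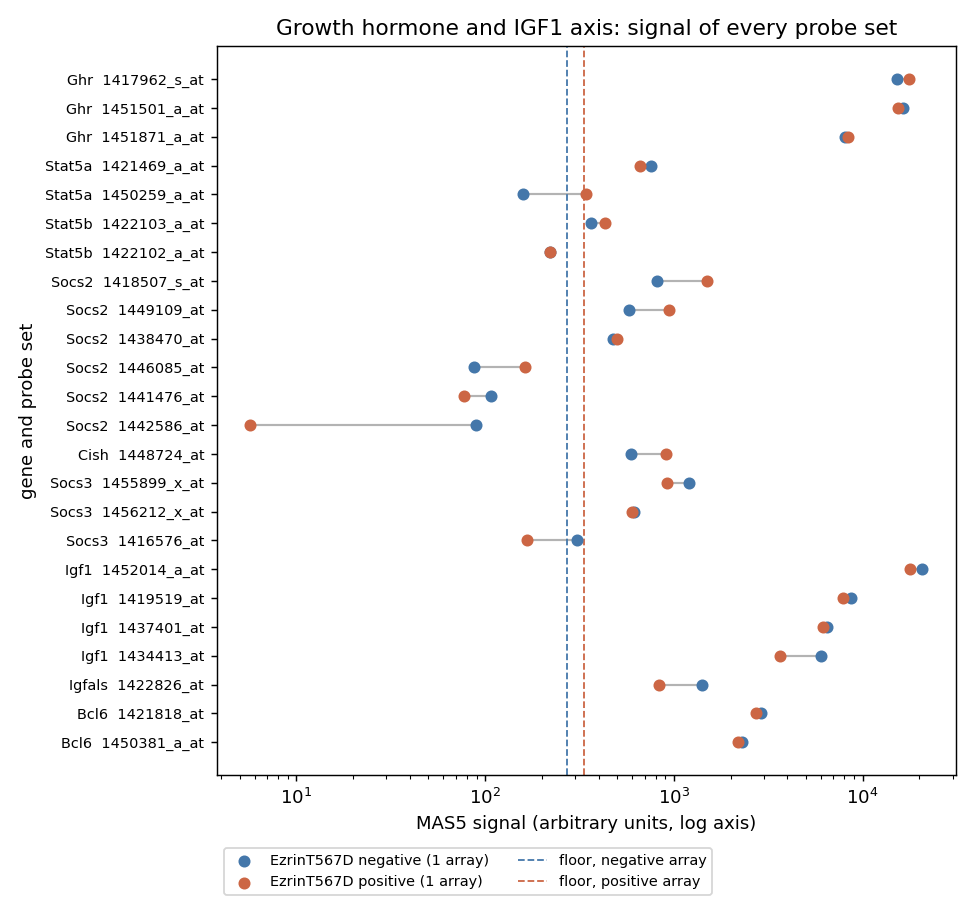
MAS5 signal (log axis, arbitrary units) of each of the 24 probe sets in the negative (blue) and positive (orange) array, 1 array per group, with the floor of each array as a dashed line. The points of Ghr, Igf1 and Bcl6 lie close together well above the floors apart from 1434413_at of Igf1, and the 4 probe sets left of both lines, 3 of Socs2 and 1 of Stat5b, give no ratio.

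The growth hormone receptor was similar in the 2 arrays. Its 3 probe sets read 15151.9 and 17569.0 (1417962_s_at), 16359.4 and 15441.3 (1451501_a_at), and 8022.3 and 8330.1 (1451871_a_at), in the negative and then the positive array. The log2 ratios were 0.21, -0.08 and 0.05, so the probe sets did not share a direction as deposited; after quantile normalization 1451501_a_at was at 0.04 and after loess also at 0.04, with all 3 then higher. Of all genes above the floor, 26.0% had a log2 ratio at or above the highest of these.

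The signal transducers gave no common direction. Stat5a read 758.5 and 663.4 in 1421469_a_at, a log2 ratio of -0.19. Its other probe set, 1450259_a_at, read 158.9, below the floor, and 342.5, which gives at least a 1.26-fold higher signal. The Stat5a probe sets therefore disagree in sign. Stat5b, the form that predominates in mouse liver, read 366.0 and 431.7 in 1422103_a_at, a log2 ratio of 0.24, and 220.1 and 221.9, below both floors, in 1422102_a_at. Stat5a and Stat5b are close paralogs, and whether a probe set separates them was not tested.

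Stat dimers bind the palindrome TTCNNNGAA, which reads the same on both strands. The letters were searched in RefSeq promoters (GRCm38.p6, 250 bases before to 50 after each annotated start), which hold 17 entries for 9 of the 10 genes. Socs2 is the gene with no entry, so it was not searched. Among all 32851 promoters, 7.02% hold the letters in the 250 bases before the start and 8.30% in the whole window. Before a start, 4 genes of the axis hold it, namely Bcl6, Igfals, Socs3 and Prlr, and Cish holds it just after the start. Counted per gene over any start, as here, 8.13% of 27025 genes hold it before a start. The shares are not fully alike: the 9 genes have 17 entries, against 32851 entries for the 27025 genes. The axis genes thus had more starts per gene in which a match could lie. The matches of the 4 of these genes that were measured are printed because they include both Cish and Igfals, which read in opposite directions on the arrays. The capitals mark TTCNNNGAA, and each line is written 5′ to 3′ along the gene's strand.
Cish, chr9:107296654-107296683, plus strand: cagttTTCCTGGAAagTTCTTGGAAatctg
Igfals, chr17:24877598-24877626, plus strand: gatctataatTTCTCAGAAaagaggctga
Igfals, later start, chr17:24878163-24878191, plus strand: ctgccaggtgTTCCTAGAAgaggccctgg
Socs3, chr11:117969502-117969530, minus strand: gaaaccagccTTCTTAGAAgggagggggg
Bcl6, chr16:23988952-23988980, minus strand: agcaaattagTTCTCAGAAttccagaggc
Bcl6, later start, chr16:23981433-23981461, minus strand: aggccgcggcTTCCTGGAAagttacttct
Bcl6, later start, chr16:23981387-23981415, minus strand: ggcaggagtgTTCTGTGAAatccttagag
Bcl6, later start, chr16:23981353-23981381, minus strand: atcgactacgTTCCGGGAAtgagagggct
In Cish the first of 2 copies begins at the first transcribed base of the RefSeq start, and 0.457% of all promoters hold 2 or more copies in this window. In Igfals the copies begin 236 bases before the first start and 58 bases before a later one. In Socs3 the copy begins 154 bases before the start, and in Bcl6 1 copy begins 118 bases before the first start and 3 begin 168, 122 and 88 bases before a later one. The entries for Ghr, Igf1, Stat5a and Stat5b do not hold these letters, which says nothing about Stat5 binding elsewhere at these genes.

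The feedback inhibitor Socs2 had the highest ratio of the axis. It read 809.3 and 1502.2 in 1418507_s_at, 1.86-fold higher (log2 ratio 0.89). The second probe set, 1449109_at, read 575.2 and 937.1, a log2 ratio of 0.70. The third, 1438470_at, read 475.4 and 498.7, a log2 ratio of 0.07. All 3 probe sets above both floors were thus higher as deposited, but they spread over more than the yardstick of 0.41, and 1438470_at turned to -0.04 after quantile normalization and -0.02 after loess. Among genes with at least 3 such probe sets, 18.3% had all of them higher. The other 3 probe sets of Socs2 read between 5.7 and 161.8 in the 2 arrays, below the floor. Of all genes above the floor, 1.90% had a log2 ratio at or above 0.89.

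Cish, the other feedback inhibitor, whose promoter is known for its Stat5 sites, was also higher. Its single probe set, 1448724_at, read 590.8 and 903.4, 1.53-fold higher (log2 ratio 0.61). This lies just past 1.5-fold and at 1.48 times the technical SD, and 5.66% of all genes had a ratio at or above it. At such signals the spread is wider: the yardstick is 0.46 for genes with either of the compared probe sets under 1000, and 13.0% of genes with a mean signal up to 1000 differed by at least 1.5-fold in either direction. After quantile normalization it was 0.56 and after loess 0.56, under 1.5-fold. No other probe set was there to compare.

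Socs3, the cytokine-induced member of the family, read in the other direction. Its probe set 1455899_x_at read 1205.6 and 918.0, a log2 ratio of -0.39, and 1456212_x_at read 617.4 and 596.5, a log2 ratio of -0.05. The third, 1416576_at, read 307.4 and then 165.9, below the floor. Because the floor of the positive array, 334.0, is above 307.4, no fold can be given for it. Both ratios lie within 0.41 of 0, and both come from probe sets whose suffix marks probes shared with other transcripts.

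**Figure D2:**
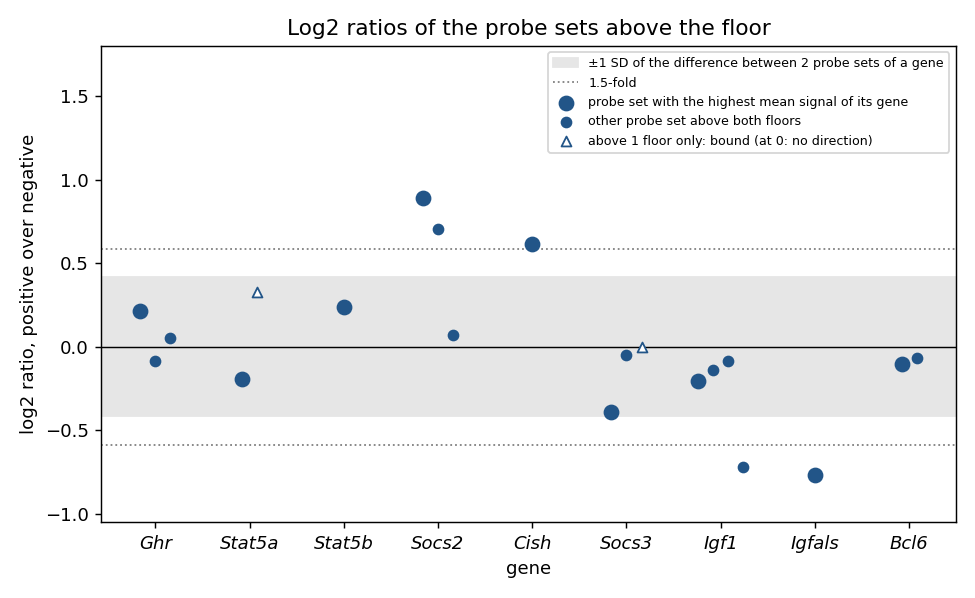
Log2 ratio (positive divided by negative) for the 20 member probe sets above the floor in at least 1 array, by gene; large points are the highest-signal probe set of a gene, triangles are bounds, the grey band is ±0.41 (the SD of the difference between 2 probe sets of a gene) and dotted lines mark 1.5-fold. Of Socs2 2 of 3 probe sets lie above the upper dotted line, as does Cish, and Igfals and 1 of the 4 Igf1 probe sets lie below the lower one.

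Igf1, the growth factor that the liver supplies to the circulation, read lower in the positive array in all 4 probe sets. The signals were 20632.7 and 17898.8 in 1452014_a_at, 8653.6 and 7863.6 in 1419519_at, and 6517.8 and 6147.6 in 1437401_at. Their log2 ratios of -0.21, -0.14 and -0.08 were small, and the median over the 805 genes with a mean signal over 5000 was -0.12. The fourth, 1434413_at, read 6052.9 and 3670.5, 1.65-fold lower (log2 ratio -0.72). Among genes with at least 4 probe sets above both floors, 10.6% had all of them lower. After loess, which takes out differences that depend on signal, the highest-signal probe set was at -0.08 and 1437401_at at 0.00, so 1434413_at alone carried a difference past 1.5-fold (-0.65). Fewer cells with the transcript and less RNA per cell cannot be told apart in such bulk samples.

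Igfals, the acid-labile subunit that binds IGF1 in blood, had the lowest ratio of the axis. It read 1414.5 and 830.8 in its single probe set, 1422826_at, 1.70-fold lower (log2 ratio -0.77). This is 1.85 times the technical SD, and 1.57% of all genes had a ratio at or below it. It ranged from -0.78 to -0.73 over all settings tried. Only quantile normalization, loess and the offset could move Igfals, whose single probe set is above each floor and has no shared-probe suffix. The other settings thus could not test this ratio, and a second probe set for comparison was lacking. Bcl6, the Stat5-opposing repressor, was similar in the 2 arrays, at 2911.3 and 2715.0 in 1421818_at and at 2289.5 and 2187.7 in 1450381_a_at. Its log2 ratios were -0.10 and -0.07.

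The wider receptor pathway had 18 of 20 listed genes above the floor in at least 1 array, 5 higher, 12 lower and 1 without a direction, with a median log2 ratio of -0.05. Among all genes above the floor, 46.1% were higher and 47.8% lower. The kinase Jak2, which the receptor activates, read 427.5 and 386.4 in 1421066_at (-0.15). Of the 18, only the phosphatase Ptpn11 (SHP2) passed 2-fold, at 1186.8 and 2516.0 in 1451225_at (2.12-fold higher), with 0.50 in 1427699_a_at. The suppressor Socs4 was higher in its highest-signal probe set (700.9 to 1111.7, log2 ratio 0.67), and its other 3 probe sets gave 0.13, 0.18 and 0.36. The insulin receptor substrate Irs1 read 676.0 and 417.3 (-0.70), and the adaptor Grb10 read 660.1 and 447.6 in 1425458_a_at (-0.56). The other probe sets of Grb10 were below both floors. In this list 2 of 18 genes were at least 1.5-fold higher and 1 of 18 at least 1.5-fold lower, near the 6.29% and 4.09% of all genes.

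Among IGF ligands, receptors and binding proteins, 9 of 14 listed genes were above the floor in at least 1 array, 3 higher, 4 lower and 2 without a direction, with a median of 0.00. Of all genes above the floor, 46.1% were higher and 47.8% lower. Igfbp1, a binding protein that insulin represses in liver, was the only one past 1.5-fold, at 4343.9 and 10461.9 in its single probe set (log2 ratio 1.27). This makes 1 of 9 genes at least 1.5-fold higher, against 6.29% of all genes, and 0 of 9 lower, against 4.09%. Igfbp2 read 2047.7 and 2027.4 (-0.01), and Igfbp4 read 34592.9 and 32057.9 in 1437405_a_at (-0.11). The other probe sets of Igfbp4 did not share a direction, at -0.07, -0.10, -0.14, 0.02 and 0.45. Igfbp7 read 1829.8 and 1570.0 in 1423584_at (-0.22), with its other probe sets below both floors. Igfbp3 read 272.4, at the floor, and 361.7 in 1458268_s_at, at least 1.33-fold higher. The other probe set of Igfbp3, 1423062_at, read 149.5 and 100.1, below both floors. Igfbp5 read 313.1 in the negative and 182.4, below the floor, in the positive array, and no fold can be given. The insulin receptor gene Insr (2185.9 and 2129.3) and the clearance receptor gene Igf2r (1489.1 and 1600.4) had log2 ratios of -0.04 and 0.10. Their other probe sets gave -0.09 and 0.22 for Insr and 0.12 for Igf2r. Igf2, Igf1r and Igfbp6 were below the floor in both arrays in their highest-signal probe sets.

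Genes with sex-biased levels in liver are known readouts of the pattern of growth hormone release. Of the 18 male-biased genes listed, 13 had a probe set of their own and 11 of these were above the floor, 5 higher and 6 lower, with a median of -0.05. Signals of Ugt2b38 were 1867.2 and 565.2 (3.30-fold lower), and those of Susd4 were 501.1 and 1290.7 in 1460593_at (2.58-fold higher) against 395.2 and 472.9 in 1424221_at (log2 ratio 0.26). The fatty acid elongase Elovl3 (0.49) and the steroid dehydrogenase Hsd3b5 (0.25) came next in size. Of the 19 female-biased genes listed, 12 had a probe set of their own and 4 of these were above the floor, 1 higher and 3 lower, with a median of -0.16. The counts of both sex-biased lists stand beside 46.1% of all genes higher and 47.8% lower. Cyp3a44 read 372.5 and 653.9 (0.81) and Cyp2b10 read 446.2 in the negative and 124.9, below the floor, in the positive array, at least 1.34-fold lower. That Cyp2b10 value is from 1451787_at. No fold can be given for 1425645_s_at (282.5, then 193.1, below the floor), and 1422257_s_at was below both floors. Cux2, a repressor with higher levels in female liver, read 1350.4 and 1135.5 in 1447821_at (-0.25), and Ntrk2 read 1033.6 and 989.7 in 1420838_at (-0.06). The other probe sets of Cux2 were below both floors. For Ntrk2, 1444121_at had a log2 ratio of 0.30, opposite in sign, and the remaining probe sets were below both floors. Cyp3a, Cyp2b and Ugt2b genes have close paralogs whose transcripts a probe set may not separate.

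The pituitary hormone genes themselves are not known as liver transcripts. Prl was below the floor in both arrays, at 35.4 and 107.2. For Gh, 1460310_a_at read 28.3 and 18.6 and 1437522_x_at read 253.1 and 164.6, below the floor in both arrays. Above both floors, 1460613_x_at read 488.1 and 592.8 and 1456595_x_at read 441.2 and 698.4. The suffix _x_at marks probes shared with other transcripts, and what the last 2 probe sets bound in these samples was not tested.

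**Figure D3:**
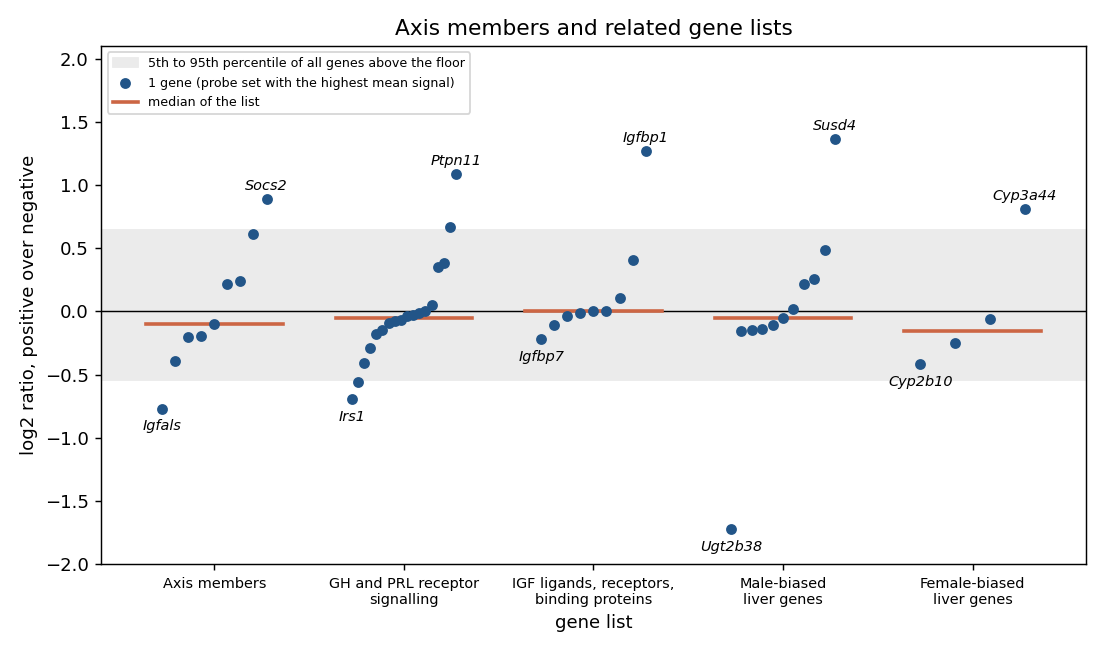
Log2 ratio (positive divided by negative) for each gene above the floor in at least 1 array, by gene list, with the list median (line) and the 5th to 95th percentile of all 9904 genes (grey, -0.54 to 0.65); the highest and lowest gene of each list is named. Medians lie between -0.16 and 0.00, and single genes such as Igfbp1 and Ugt2b38 lie outside the grey band.

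**Figure D4:**
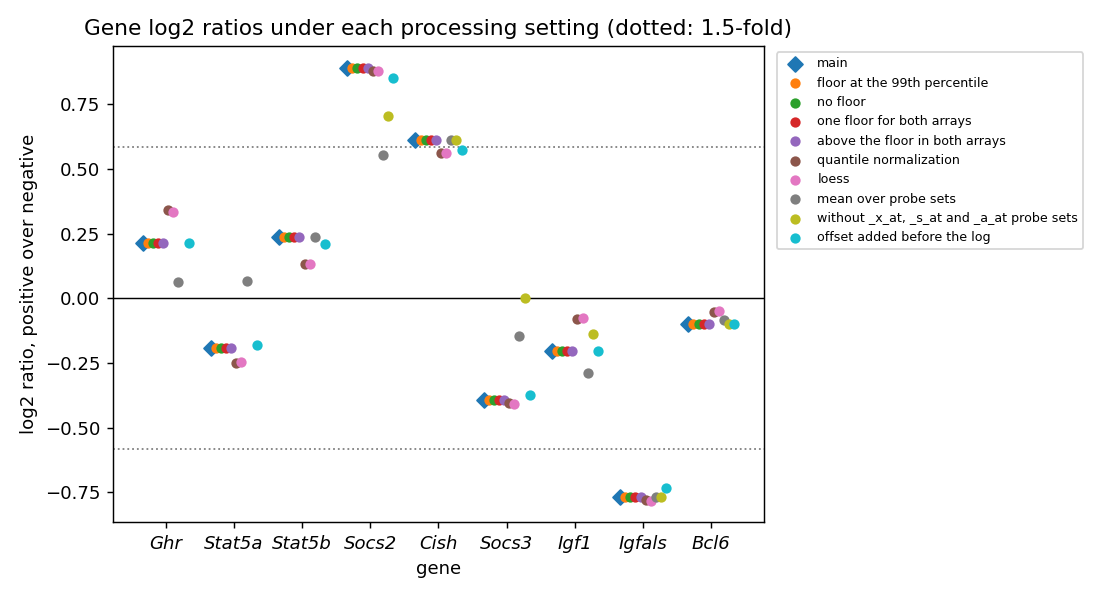
Log2 ratio of each measured member under the 10 processing settings, 1 colour per setting, with dotted lines at 1.5-fold; diamonds are the settings used in the text. Igfals stays below the lower line, but with a single probe set only quantile normalization, loess and the offset could move it. Socs2 drops under the upper line with the mean over probe sets (0.56), and Cish lies on either side of that line.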

How the data were processed

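RNA of 2 sorted hepatocyte samples was measured, 1 array per group, and groups follow the group label. The deposited values are linear probe set intensities, made with MAS5 per the submitters' processing notes; no source used here gives the version, detection calls or genome build. The trimmed mean, leaving out 2% at each end, was 500.0 in both arrays, so a shift of the whole transcriptome cannot be seen. Of 45101 probe sets, 34945 carried 1 symbol in the platform annotation, 932 several and 9160 none, and 64 were controls. By Entrez ID 34741 matched RefSeq (GRCm38.p6), and 0 symbols changed.

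From these intensities log2 of the positive signal divided by the negative signal was computed (Python 3.11.15, pandas 2.3.3, statsmodels 0.14.6 for loess). The floor of an array is the 95th percentile of 87 probe sets of chemosensory receptor genes (Olfr, Vmn, Tas and Taar families). A probe set below it in 1 array has a bound, with the dim signal raised to the floor. Where that bound points away from the measured side, no fold is given and the ratio counts as 0. The probe set with the highest mean signal stands for its gene. The number of arrays limits precision: no p-value or replicate error exists, and the yardstick covers probe differences only. The code was tested on simulated data. All members are named, with Jak2, Gh, Prl, the IGF receptors, Igf2, Insr, the Igfbp genes and up to 4 genes with the largest ratios in each other list. The rule did not include Glul, Cyp2f2, Alb, Hnf4a, Apoa1, Apob and Ttr, which were chosen after their values were known. The members and lists were chosen with earlier results of these data known. Alternatives changed the floor, scaling, probe set choice and log offset.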

Additional observations from a re-analysis of the deposited data

How the results depend on the processing

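The measured members kept their direction under the 9 alternatives that gave a value, except Stat5a, which was 0.07 with the mean over probe sets, and Socs3, whose only probe set without a shared-probe suffix gives no direction. Without probe sets ending in _x_at, _s_at or _a_at, Ghr, Stat5a and Stat5b had no value. No member reached 2-fold under any alternative. The number of members at least 1.5-fold higher was 2 in the text and 1 after quantile normalization, after loess, with the mean over probe sets and with an offset of 50. Socs2 ranged from 0.56 to 0.89, Cish from 0.56 to 0.61, Igf1 from -0.29 to -0.08, Socs3 from -0.41 to 0.00 and Ghr from 0.06 to 0.34. The median of the members ranged from -0.10 to 0.06, turning sign with the mean over probe sets. The median of the male-biased genes ranged from -0.05 to 0.12, and that of the female-biased genes, -0.16 in the text, was 0.27 without a floor, where genes at background enter. The medians of the receptor pathway (-0.11 to -0.02) and of the IGF genes (-0.03 to 0.02) stayed close to 0. Over all genes, counts at least 1.5-fold higher and lower were 623 and 405, but 473 and 507 after quantile normalization, 474 and 502 after loess, 3082 and 2821 without a floor, and 530 and 290 with the mean over probe sets. No paired analysis was possible because each group has 1 array. Signal over background limits Stat5b, the dim probe sets of Socs2, Socs3 and Stat5a, and the female-biased genes, which have probe sets below the floor.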
